A study of Mus musculus with 8 samples.

Results

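The genes described here were 10 genes whose products mark vascular endothelium: Cd34, Emcn, Pecam1, Kdr, Tek, Tie1, Cdh5, Cldn5, Esm1 and Egfl7. They were taken as the non-control probes whose gene name equalled one of these, and for each gene the probe with the highest mean signal was read on 8 arrays. The array held 35513 gene names, of which the 27120 with at least 2 of 8 arrays well above background were tested, with 8 of the 10 endothelial genes among them. Tie1 was well above background on 1 array and Tek on 0, so both were left out of the tests. The 10 genes were picked with the levels on these arrays in view, and their values are therefore given as a description with no test.

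RNA was measured in neurospheres, free-floating balls of neural progenitor cells, derived by way of embryoid bodies, made in the BMP antagonist Noggin, out of EB3, a line of mouse embryonic stem cells. All cultures received a lentivirus at a multiplicity of infection of about 25 and grew for 6 days in 20 ng/ml FGF2. At the tertiary (P2) and primary (P0) passage there were 4 conditions: miR-17, a control miRNA against lacZ, an shRNA that targets Nr2f1 and Nr2f2 together, and a control shRNA against firefly luciferase. Each of the 8 combinations was 1 single-colour array, and independence of the cultures is not given in the labels, so a difference between 2 arrays had no replicate check.

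Endothelial cells line blood vessels and arise in the embryo from mesoderm, not from neural ectoderm; vessels enter the developing nervous system from outside. Vascular endothelial growth factors act through the receptor VEGFR2, the product of Kdr, and angiopoietins act through TIE2, the product of Tek, while VE-cadherin and claudin-5 hold neighbouring cells together. Single markers of the set are also made elsewhere: Pecam1 in undifferentiated mouse embryonic stem cells and Cd34 in blood progenitors. In bulk RNA, fewer cells of a type and less RNA per cell cannot be told apart.

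The manipulated microRNA and a microRNA encoded inside one of the 10 genes are shown with the seed, bases 2 to 8, in capitals. Mature miR-17-5p (RefSeq, GRCm38.p6 chr14:115043684-115043706, plus strand) was taken for miR-17, which the array titles name without saying which mature strand. Mature miR-126a-3p (chr2:26591402-26591423, plus strand) comes from a hairpin that lies within Egfl7. The seeds are not shared.
mmu-miR-17-5p: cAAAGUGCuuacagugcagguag
mmu-miR-126a-3p: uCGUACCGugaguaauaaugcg

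The probes of the receptor genes Tie1 and Tek, which are paralogues, read aligned stretches of the 2 transcripts and are shown because they gave different readings. Over the 57 bases in which the 60-base probes align, 39 bases were equal and 18 differed (68.4% identity), and the capitals mark the differing bases. The Tie1 probe lies at mm9 chr4:118144132-118144191 on the minus strand and the Tek probe at chr4:94540624-94540683 on the plus strand.
Tie1 probe: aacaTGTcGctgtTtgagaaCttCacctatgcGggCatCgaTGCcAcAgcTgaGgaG
Tek probe: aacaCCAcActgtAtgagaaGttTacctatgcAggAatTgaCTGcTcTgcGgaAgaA

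Promoters from 250 bases before to 50 after the start were taken from RefSeq (GRCm38.p6), which held 10 windows for 8 of the 10 genes, 3 of them for Egfl7. The windows of 3 genes with their highest level on the primary miR-17 array are printed here, and the capitals mark 2 core letter strings of ETS-type factors, named after the sequences, on either strand. They are Tie1 (chr4:118489800-118490099, minus strand), Cd34 (chr1:194938571-194938870, plus strand) and Esm1 (chr13:113209409-113209708, plus strand).
Tie1 promoter: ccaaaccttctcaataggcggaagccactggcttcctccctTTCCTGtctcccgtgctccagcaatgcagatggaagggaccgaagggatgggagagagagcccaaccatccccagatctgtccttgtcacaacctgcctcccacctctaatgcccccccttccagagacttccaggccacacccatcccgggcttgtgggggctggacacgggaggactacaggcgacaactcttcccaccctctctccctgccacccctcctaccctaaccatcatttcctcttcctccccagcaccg
Cd34 promoter: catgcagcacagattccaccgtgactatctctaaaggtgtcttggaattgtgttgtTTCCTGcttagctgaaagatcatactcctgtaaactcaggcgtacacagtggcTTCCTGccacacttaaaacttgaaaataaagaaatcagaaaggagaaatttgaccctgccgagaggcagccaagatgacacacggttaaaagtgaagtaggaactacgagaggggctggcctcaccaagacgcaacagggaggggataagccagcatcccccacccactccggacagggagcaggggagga
Esm1 promoter: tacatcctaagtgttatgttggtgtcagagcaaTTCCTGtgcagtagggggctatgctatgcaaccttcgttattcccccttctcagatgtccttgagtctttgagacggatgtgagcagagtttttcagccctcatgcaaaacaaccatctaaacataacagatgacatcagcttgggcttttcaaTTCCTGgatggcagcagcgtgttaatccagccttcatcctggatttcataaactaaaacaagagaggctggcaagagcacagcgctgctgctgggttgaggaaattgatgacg
One or the other of these letter strings, searched on both strands and not overlapping each other, stood in 8 of the 10 windows, against 41.4% of 32851 promoters of the same length and 24 of 59 (40.7%) promoters of other endothelial genes. The string CAGGAA alone was in 7 of 10 windows and 30.6% of all promoters. The other ETS-type string, CCGGAA, was in 1 of 10 windows and 14.9% of promoters. Of other strings searched, the GATA-type AGATAA was in 1 window and 11.2% of promoters. The SOX-type ACAAAG was in 2 windows and 18.7% of promoters, and the TATA box string TATAAA in 0 windows and 13.6% of promoters. The window of Cldn5, also highest on the primary miR-17 array, held neither ETS-type string. Those of Kdr, lowest on that array by its first probe, and of Tek, dim on all 8 arrays, held one or the other. These matches describe the letters of the windows only.

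All levels below are log2 intensities after the deposited background subtraction, minus the log2 75th percentile of the array, so that 0 is the array's upper quartile. Levels are ordered between arrays within a gene, never between genes. Between 57.9% and 67.9% of non-control spots were well above background per array, most on the primary miR-17 array. The upper-quartile intensity ran from 530 to 1065, and spots of probes printed 10 times varied by a median of 4.75% to 5.18%, which is spot noise and not culture noise. The slope of the spike-in controls was 0.891 on the primary miR-17 array and 0.900 on the primary control miRNA array, against 0.946 to 0.976 on the other arrays. Slide column 1 held the shRNA arrays and slide column 2 those of the miRNA vectors, and vector system and column cannot be told apart. Slide rows 3 and 4 held the P2 arrays and rows 1 and 2 the P0 arrays. The control vectors were in rows 1 and 3, and miR-17 and the Nr2f1/2 shRNA in rows 2 and 4. Passage and manipulation thus cannot be told apart from slide row.

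The shRNA was checked on its targets first. Nr2f1, on chromosome 13 at 78328723 to 78328782 of mm9, stood at 3.73 at P2 and 5.37 at P0 with the Nr2f1/2 shRNA, against 4.90 and 6.16 with the control shRNA. Nr2f2, a nuclear receptor also known as a venous identity factor, stood at 1.66 and 2.82 with the Nr2f1/2 shRNA, against 2.55 and 3.32 with the control shRNA. Both targets were lower on the knockdown array at each passage, Nr2f1 by 2.25-fold at P2 and 1.73-fold at P0 and Nr2f2 by 1.87-fold and 1.42-fold. The miR-17 arrays had Nr2f2 at 1.79 and 2.30, against 1.36 and 2.21 on the control miRNA arrays, which were 1.20 and 1.11 log2 units below the control shRNA arrays.

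The endothelial genes did not form 1 pattern. Cd34, Esm1, Cdh5, Tie1, Emcn, Cldn5 and Egfl7, 7 of the 10, had their highest level on the primary miR-17 array, where 9 of the 10 were well above background. Kdr was lowest there, Pecam1 was nearly flat over the 8 arrays, and Tek was not well above background on any. On the other arrays, 6 of the 10 were well above background with miR-17 at P2, 7 and 7 with the control miRNA at P2 and P0, 8 and 5 with the Nr2f1/2 shRNA, and 8 and 5 with the control shRNA.

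Among surface proteins, Cd34 encodes a sialomucin of endothelial cells and blood progenitors and was read on chromosome 1 at 196787392 to 196787451 of mm9. In each pair of values that follows the tertiary array comes before the primary array. Cd34 was at -0.31 and 1.19 with miR-17, at -0.39 and -1.48 with the control miRNA, at -0.64 and -3.00 with the Nr2f1/2 shRNA, and at 0.21 and -3.57 with the control shRNA, well above background on all 8 arrays. The 3 highest arrays were primary miR-17, tertiary control shRNA and tertiary miR-17, and the lowest were the primary shRNA arrays. Against its control miRNA array the primary miR-17 array was 6.33-fold higher, and the tertiary pair differed by 1.05-fold. Tertiary neurospheres were 13.8-fold higher than primary ones with the control shRNA and 5.13-fold higher with the Nr2f1/2 shRNA, and 1.50 log2 units lower with miR-17, so the passage difference ran in both directions.

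Emcn encodes endomucin, a sialomucin of capillary and venous endothelium (chromosome 3, 137086389 to 137086448). It was at -5.91 and -1.90 with miR-17, at -4.74 and -2.70 with the control miRNA, at -4.20 and -7.25 with the Nr2f1/2 shRNA, and at -3.64 and -6.22 with the control shRNA. The tertiary miR-17 array and both primary shRNA arrays were not well above background. The 2 vector systems thus ran opposite ways with passage. With miR-17 tertiary neurospheres were at least 11.5-fold lower than primary ones and with the control miRNA 4.12-fold lower. With the Nr2f1/2 shRNA they were at least 1.89-fold higher, and with the control shRNA at least 2.50-fold higher. Here "at least" means that the dim array was set at the weakest signal counted as well above background on it, or at the probe's own signal where that was higher.

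Pecam1, which encodes the adhesion molecule CD31, was the flattest of the 10 (chromosome 11, 106540864 to 106540923). Its levels were -2.82 and -2.67 with miR-17, -2.86 and -2.79 with the control miRNA, -2.83 and -2.41 with the Nr2f1/2 shRNA, and -2.81 and -2.83 with the control shRNA. The whole range was 0.45 log2 units, while the SD between the 2 spots of this probe on an array was 0.13 to 0.58. The differences of Pecam1 between arrays were thus of the size of the spread between its spots.

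Of the receptor tyrosine kinases, Kdr (VEGFR2) was bright on every array. The probe with the higher mean signal (chromosome 5, 76330395 to 76330454) read 3.66 and 2.06 with miR-17, 3.88 and 2.79 with the control miRNA, 2.91 and 3.05 with the Nr2f1/2 shRNA, and 3.05 and 3.36 with the control shRNA. The primary miR-17 array was the lowest, 0.73 log2 units below its control miRNA array. A second Kdr probe, also well above background on all 8 arrays, ordered them differently. It read -0.17 and -0.40 with miR-17, -0.74 and -0.52 with the control miRNA, -1.92 and -2.85 with the Nr2f1/2 shRNA, and -1.83 and -2.94 with the control shRNA. On the second probe all 4 miRNA arrays were above all 4 shRNA arrays, and on the first probe they were not.

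The Kdr probes had a Pearson correlation of -0.07 with each other over the 8 arrays. Between the primary control arrays the control miRNA differed from the control shRNA by -0.57 on the first probe and by 2.41 on the second. Against the mean of the 7 other tested endothelial genes the first probe had a correlation of -0.72 and the second of 0.56 (8 arrays that share 1 slide and differ in background, given without a p). The statement that Kdr was lowest on the primary miR-17 array thus rests on the first probe. The 2 Cd34 probes correlated at 0.67, and the second, well above background on 2 arrays only, also had its highest level on the primary miR-17 array.

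**Figure D1:**
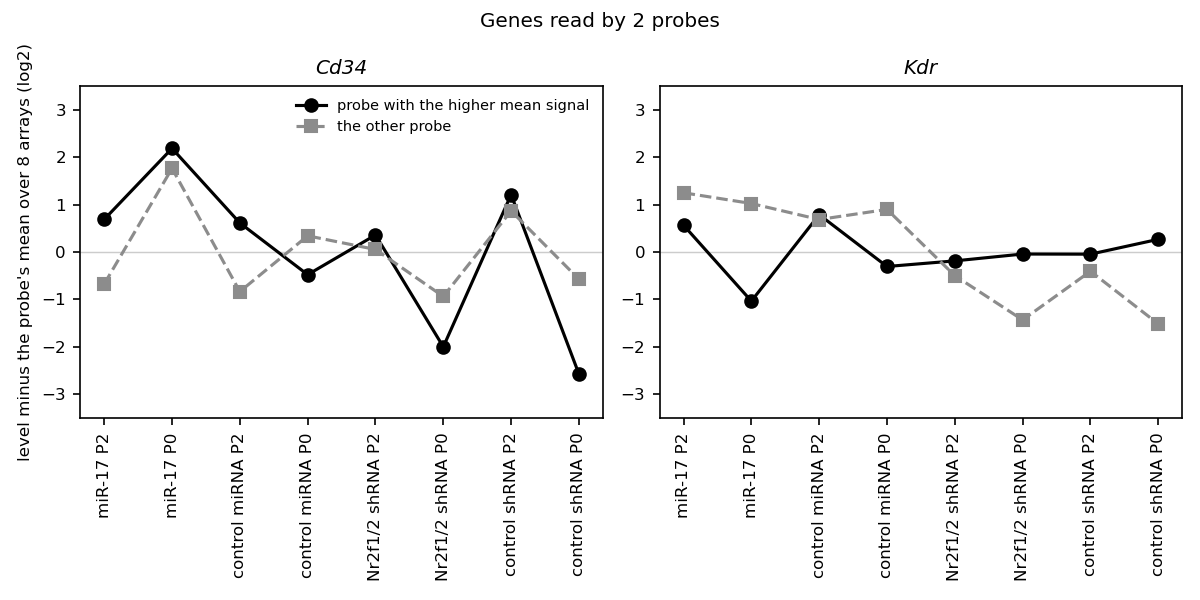
Level of the 2 probes of Cd34 and of Kdr on each array, minus the probe's own mean over the 8 arrays (log2), with lines joining the arrays for reading only. Both Cd34 probes peak on the primary miR-17 array, while the Kdr probes order the arrays differently (Pearson r = -0.07).

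Tie1 and Tek encode the TIE receptors, TIE2 being the angiopoietin receptor and TIE1 its partner at the cell surface. Tie1 read -3.04 on the primary miR-17 array (intensity 64.2), and the other 7 arrays, between -7.71 and -6.15, were all not well above background. The primary miR-17 array was at least 3.51-fold above its control miRNA array, and tertiary miR-17 neurospheres were at least 5.20-fold below the primary ones. Of 35513 gene names, 548 (1.54%) were well above background on that array and no other. Tek, read by the aligned probe printed above, was dim on all 8 arrays, with -7.67 and -4.88 for miR-17, -7.25 and -5.56 for the control miRNA, -6.95 and -7.36 for the Nr2f1/2 shRNA, and -7.07 and -5.96 for the control shRNA. No fold is given for Tek, and its level was not detectable at this signal over background.

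At the junctions, Cdh5 encodes VE-cadherin, the adherens junction protein specific to endothelium (chromosome 8, 106668159 to 106668218). It was at -6.91 and -2.13 with miR-17, at -7.03 and -5.53 with the control miRNA, at -4.41 and -6.40 with the Nr2f1/2 shRNA, and at -3.18 and -6.76 with the control shRNA. Only the primary miR-17 array and the tertiary arrays of both shRNAs were well above background. With miR-17 the primary array was at least 6.60-fold above its control. Tertiary neurospheres were at least 9.77-fold below primary ones with miR-17, and at least 1.64-fold above them with the Nr2f1/2 shRNA and at least 3.42-fold above with the control shRNA. The tertiary control miRNA array was at least 3.53-fold below the tertiary control shRNA array, so the control vectors differed as well.

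Cldn5 encodes claudin-5, the main tight junction claudin of brain vessels (chromosome 16, 18778046 to 18778105). Its levels were -4.77 and -0.62 with miR-17, -4.86 and -2.48 with the control miRNA, -3.69 and -2.09 with the Nr2f1/2 shRNA, and -1.83 and -3.46 with the control shRNA, all well above background. It was 3.65-fold higher on the primary miR-17 array than on its control. It was also the member that differed most between the shRNA arrays, 3.63-fold lower with the Nr2f1/2 shRNA than with its control at P2 and 2.60-fold higher at P0. With passage it was lower in 3 of 4 conditions, by 4.15, 2.37 and 1.61 log2 units with miR-17, the control miRNA and the Nr2f1/2 shRNA, and 1.63 log2 units higher with the control shRNA.

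Of the secreted products, Esm1 encodes endocan, a proteoglycan of sprouting endothelium (chromosome 13, 114008204 to 114008263). Esm1 was at -1.88 and -0.84 with miR-17, at -1.91 and -3.69 with the control miRNA, at -3.04 and -7.15 with the Nr2f1/2 shRNA, and at -2.78 and -6.76 with the control shRNA. Both primary shRNA arrays were not well above background and lay below the other 6 arrays. With miR-17 it was 7.20-fold above its control at P0, and the tertiary pair was at the same level within 0.04 log2 units. Tertiary neurospheres were higher than primary ones in 3 conditions, 3.42-fold with the control miRNA, at least 4.21-fold with the Nr2f1/2 shRNA and at least 4.54-fold with the control shRNA, and 2.05-fold lower with miR-17.

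Egfl7 encodes a secreted factor of endothelium and hosts the miR-126a hairpin (chromosome 2, 26448142 to 26448201). It was bright throughout, at 1.24 and 2.68 with miR-17, 0.63 and 1.92 with the control miRNA, 1.71 and 1.93 with the Nr2f1/2 shRNA, and 1.21 and 1.76 with the control shRNA. Of the 8 tested members it was the one lower at P2 than at P0 in all 4 conditions, by a mean of -0.87 ± 0.58 log2 units (SD, n = 4 conditions), as were 32.1% of all genes tested. With miR-17 it was 1.70-fold above its control at P0.

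With each member placed against the mean of the other 7 tested members over the 8 arrays, dim arrays entering at their measured signal, Emcn (Pearson r 0.83), Cd34 (0.82) and Cdh5 (0.81) went most with the rest, followed by Esm1 (0.61), Cldn5 (0.40) and Egfl7 (0.29). Pecam1 (-0.15) and Kdr (-0.72) did not. The mean of the 8 members, each centred on its own mean, was 1.64 on the primary miR-17 array and 0.70 on the tertiary control shRNA array, and lowest on the primary Nr2f1/2 shRNA (-0.99) and control shRNA (-1.14) arrays. Over the 27112 other tested genes, the 8 named genes most like this mean were Rasip1 and Foxc2 (r 0.98 each), Sox7, Pear1 and Heyl (0.97 each), and Stab1, Twist1 and Dusp2 (0.96 each). A correlation above 0.9 was found for 38 genes (0.140%) and for 6 of 69 other endothelial genes, all measured on the same 8 arrays.

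The comparison of miR-17 with its control miRNA asked how the forced microRNA changed the cultures. At 2-fold or more in primary neurospheres, 4 of the 8 tested members were higher, Cd34, Esm1, Cdh5 and Cldn5, against 3.95% of all genes, and 0 were lower, against 1.65%. In tertiary neurospheres 0 were higher (3.03% of all genes) and 1, Emcn, was lower by at least 1.61-fold (1.05%). Highest on the primary miR-17 array were 6 of the 8 tested members, where 23.0% of all genes also had their highest level. Esm1, Cdh5 and Cldn5 were at least 2-fold above every other array, a feature of 1.54% of all genes. Since the members were picked with these levels known, nothing is read from these counts.

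**Figure D2:**
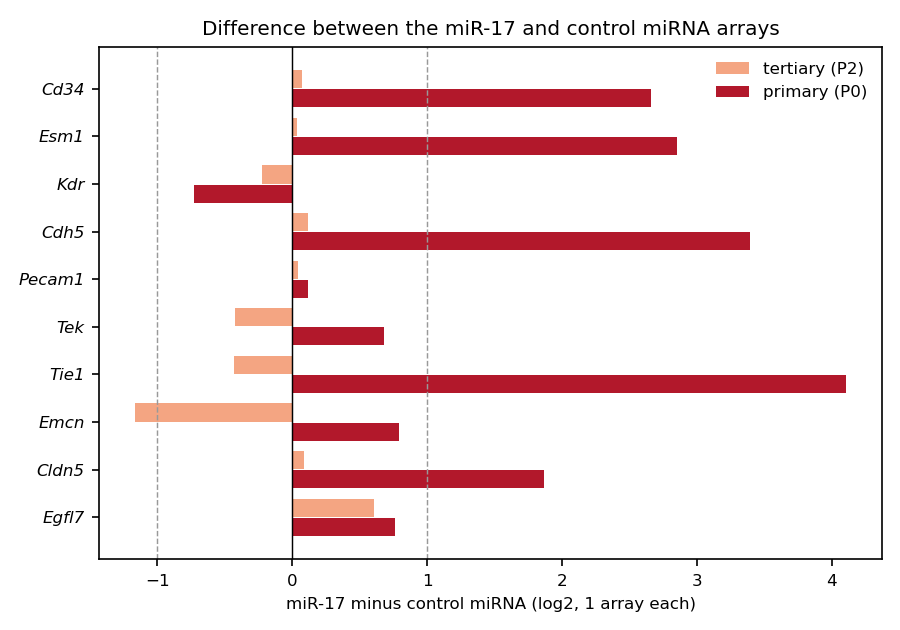
Measured difference between the miR-17 and control miRNA arrays for the 10 genes (log2), 1 array against 1 at each passage, with dashed lines at 2-fold. Primary bars reach past 2-fold for Cd34, Esm1, Cdh5, Cldn5 and Tie1 and tertiary bars stay within 2-fold except for Emcn; Tek was dim on all 4 arrays, and Tie1 and Cdh5 were dim on 3.

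A list of 77 other endothelial genes, also written with earlier results known, was read for the same comparison, with 69 of them tested. On the primary miR-17 array 28 of the 69 (40.6%) had their highest level, against 23.0% of all genes. Among genes well above background on all 8 arrays the share was 13 of 45 (28.9%) against 16.2%, and among genes dim on at least 1 array 15 of 24 (62.5%) against 44.2%. Genes of the endothelial surface and junction had 14 of 26, endothelial transcription factors 5 of 12, arterial and venous genes 3 of 10, blood-brain barrier genes 3 of 9, VEGF ligands and other receptors 2 of 8, and angiopoietins and TIE signalling genes 1 of 4. At least 2-fold above every other array were 12 of 69 (17.4%), against 1.54%. The transcription factor gene Hhex and the surface gene Clec14a, not tested, were well above background on the primary miR-17 array and no other, while Erg, an ETS factor of endothelium, was not well above background on any.

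Between the primary miR-17 and control miRNA arrays 18 of 69 listed genes were higher by 2-fold or more and 4 lower, with a median difference of 0.53 log2 units against 0.00 for all genes. Cd93, a surface receptor, differed most, at 0.30 with miR-17 and -3.02 with the control (9.95-fold), followed by the adhesion gene Icam2 at 0.09 and -2.96 (8.27-fold). The factor Sox18 was at -1.40 and -3.74 (5.05-fold), and Sox7 was at least 2.58-fold higher. The junction gene Esam was at -1.12 and -3.31 (4.56-fold), and Ecscr, an endothelial regulator of migration, was at -0.92 and -3.11 (4.56-fold). In tertiary neurospheres 3 listed genes (4.35%) were higher at 2-fold, against 3.03% of all genes, and 2 (2.90%) lower, against 1.05%. Among them Tal1, a factor of blood and endothelial progenitors, was 2.82-fold and Gata2 2.62-fold higher and Procr 2.68-fold lower with miR-17. The tertiary median was 0.00, against -0.01 for all genes. Angpt1 was among the 4 listed genes lower at P0.

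**Figure D3:**
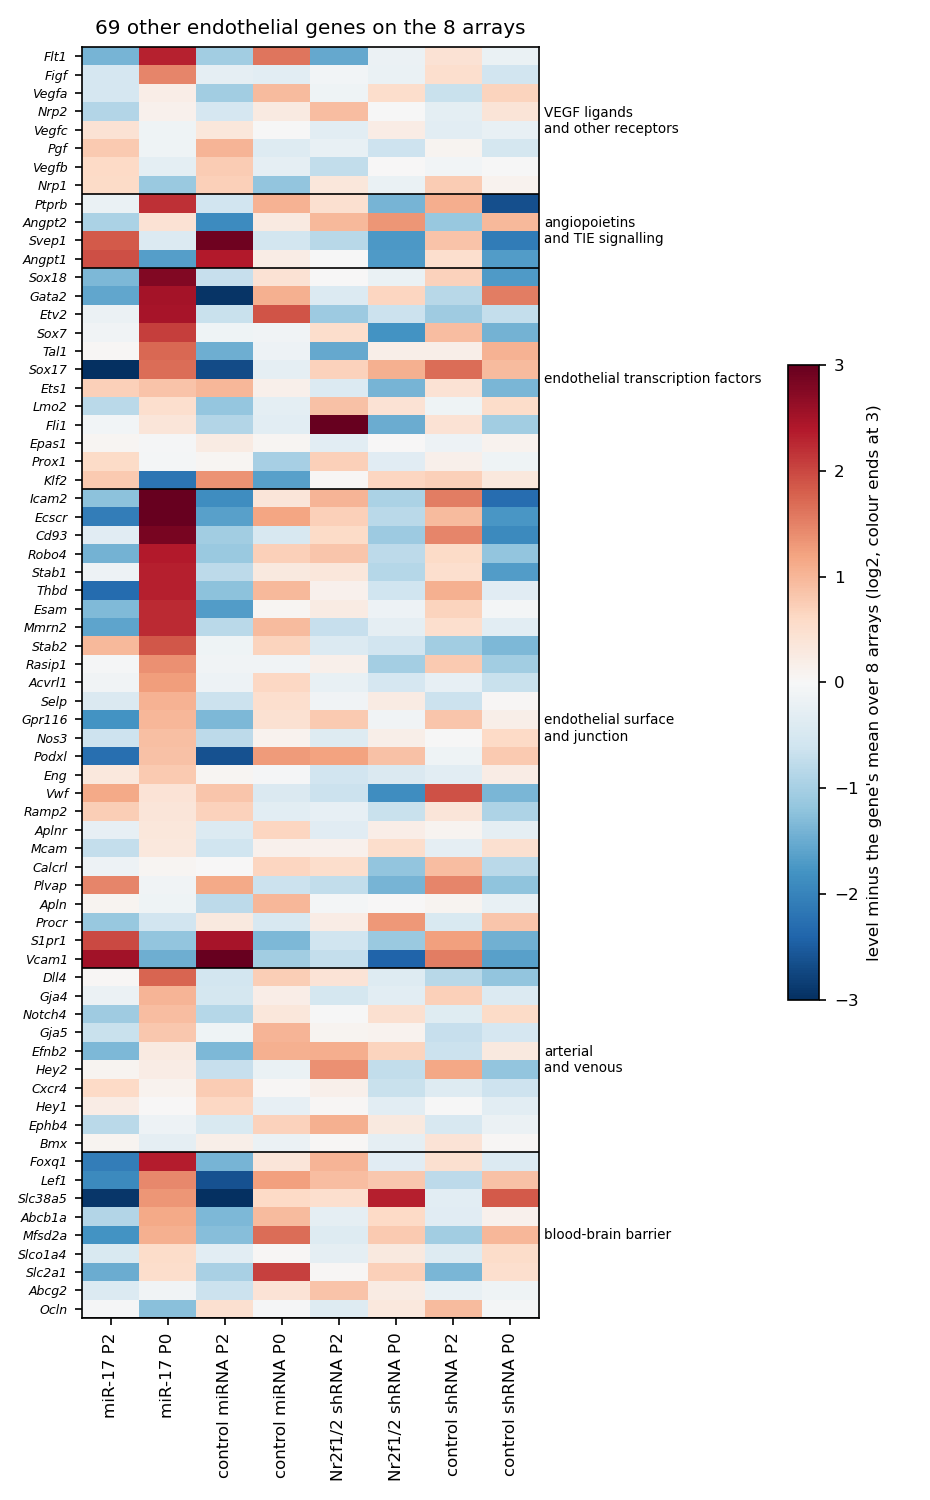
Level of 69 other endothelial genes on each array minus the gene's mean over the 8 arrays (log2, colour scale ending at 3), grouped by list and ordered within each list by the primary miR-17 array. The primary miR-17 column holds the highest value of 28 of the 69 genes, 14 of them among the 26 surface and junction genes.

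Fitted over both passages, 0 of the 69 listed genes and 0 of 27120 were called for miR-17 in limma. There 2 listed genes (Tal1 and Stab2) and 0.992% of all genes had an unadjusted p under 0.05. The interaction of miR-17 with passage also called 0 genes in limma, with 3 listed genes (Figf, Sox18 and Foxq1) and 1.08% of all genes at an unadjusted p under 0.05. The fit had 3 residual degrees of freedom and the interaction fit 1, so a lack of calls does not show a lack of change.

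Markers of other cell types were read beside these values as the sum of linear levels, in units of the array's 75th percentile. Such a sum is carried by the brightest genes of a list, so single genes were also compared, in pairs whose higher array was well above background. Early blood genes summed to 0.968 on the primary miR-17 array and 0.921 on its control, with 6 and 4 of 9 well above background. The embryonic globin genes Hba-x and Hbb-y were never so, while another, Hbb-bh1, was on all 8 arrays and was 1.10-fold higher with miR-17. One by one 5 of the 9 were higher with miR-17, with Gfi1b 1.58-fold, Runx1 at least 1.42-fold and Gata1, well above background on that array only, at least 1.78-fold higher, and 1, Myb, was lower by 1.27-fold. Mural cell and fibroblast genes summed to 22.6 and 16.7, with Rgs5 and Abcc9 among 11 never well above background. Of these 11, 5 were higher and 4 lower with miR-17, and the 4 past 2-fold were all higher: Pdgfrb, a receptor of pericytes, 2.29-fold, Kcnj8 2.12-fold, and the collagen genes Col1a1 3.55-fold and Col1a2 2.15-fold. Leukocyte and microglia genes summed to 2.60 and 2.48, with Cx3cr1 and Tyrobp among 7 never well above background. Early mesoderm genes summed to 1.27 and 2.00, with Mesp1 and Hand1 never well above background. Of these 6 genes 1 was higher and 2 lower with miR-17, the marker T by 2.71-fold. Pluripotency genes summed to 3.27 and 3.12. Of these 5 genes 4 were higher with miR-17, 0 of them past 2-fold, and 1, Pou5f1, was lower by 2.41-fold. The 7 neural stem and progenitor genes, all well above background on all 8 arrays, summed to 143 and 224. All 7 were lower with miR-17, 0 of them past 2-fold. The part of these cell types, and of the lower spike-in slopes at P0, in the differences above was not tested.

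The comparison of tertiary with primary neurospheres asked what changed with passage. Of the 8 tested members only Emcn divided by vector at 2-fold. With both shRNAs, tertiary neurospheres had at least 2-fold more measured signal for Cd34, Esm1, Cdh5 and Emcn (4 of 8 tested members, against 4.54% of all genes), and with both miRNA vectors at least 2-fold less for Emcn, Cldn5 and Egfl7 (3 of 8, against 21.7%). A pair was counted where its higher array was well above background, and the measured signal of the other array was used even where dim. With the Nr2f1/2 shRNA the bounds of Cdh5 and Emcn given above are under 2-fold, and Cdh5 was dim on both control miRNA arrays. Emcn met both conditions, as did 0.214% of all genes. Among other endothelial genes 4 of 69 met both: Ptprb, Robo4, Icam2 and Ecscr, named because so few did. Of the 69, 14 were higher in both shRNA pairs and 25 lower in both miRNA pairs.

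**Figure D4:**
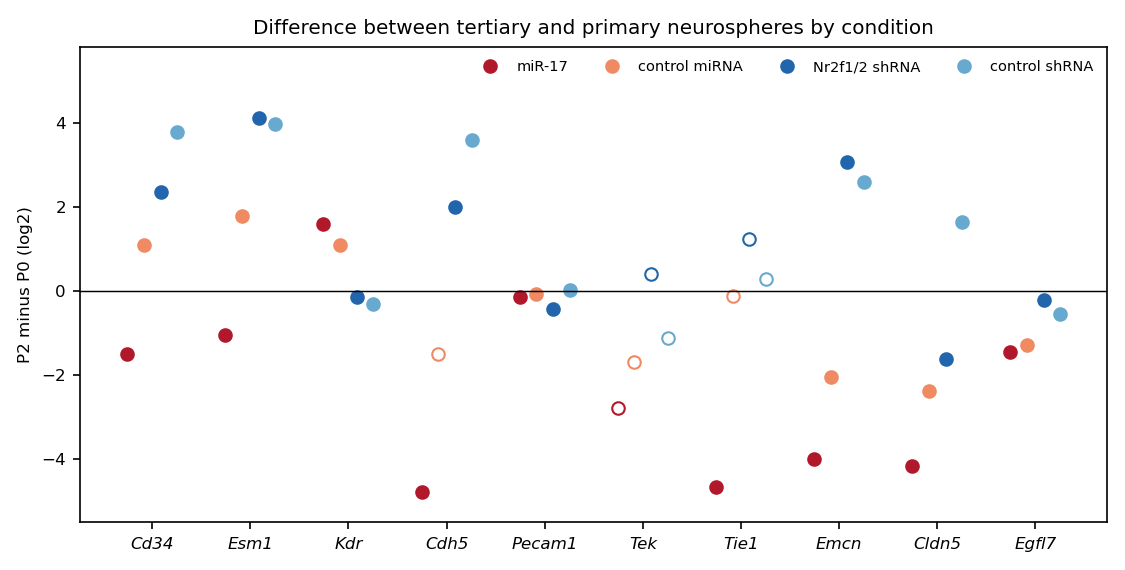
Measured difference between tertiary and primary neurospheres (log2) for the 10 genes in each condition, 1 array against 1. Open points had neither array well above background. Other points use the measured signal of both arrays, dim ones included. Emcn lies above 0 with both shRNAs and below 0 with both miRNA vectors, and Egfl7 lies below 0 in all 4 conditions.

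By condition, with miR-17 tertiary neurospheres were higher at 2-fold for 1 of 8 members, Kdr (15.3% of all genes), and lower for 6 (27.3%). With the control miRNA they were higher for 3, Cd34, Esm1 and Kdr (15.5%), and lower for 3, Emcn, Cldn5 and Egfl7 (27.0%). With the Nr2f1/2 shRNA they were higher for 4 (6.15%) and lower for Cldn5 (6.70%). With the control shRNA they were higher for 5, Cd34, Esm1, Cdh5, Emcn and Cldn5 (12.6%), and lower for 0 (12.1%). The mean over conditions was smaller than its SD for Cd34 (1.43 ± 2.24), Kdr (0.56 ± 0.94), Pecam1 (-0.16 ± 0.19) and Cldn5 (-1.62 ± 2.42; SD, n = 4 conditions each), all well above background on all 8 arrays. For these 4 genes the spread between conditions was thus larger than the mean passage difference. All these Kdr values are of its first probe. On the second Kdr probe P2 minus P0 was 0.23 with miR-17 and -0.21 with the control miRNA. It was 0.93 with the Nr2f1/2 shRNA and 1.11 with the control shRNA, so the passage reading of Kdr depends on the probe.

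In limma with condition as a block, 2.61% of all genes rose with passage and 2.36% fell, and the median of all genes moved by -0.21. Of the 69 listed genes 2 rose and 3 fell, a share of 2.90% and 4.35%. Angpt1, a ligand of TIE2, had levels of 1.65 to 2.10 at P2 with the miRNA vectors and -0.29 and 0.24 with the shRNAs, against -1.96 to -0.06 at P0, so that 1 tertiary array lay below 1 primary array. It rose by 2.39 (SE 0.35, adjusted p = 0.0403 in limma), and the adhesion gene Vcam1 rose by 3.27 (SE 0.47, adjusted p = 0.0384 in limma), both higher at P2 in 4 of 4 conditions. Mfsd2a, the lipid transporter of brain endothelium, fell by 2.26 (SE 0.35), the amino acid transporter gene Slc38a5 fell by 3.05 (SE 0.50) and Tal1 fell by 1.40 (SE 0.22), with an adjusted p of 0.0428 in limma for each and lower levels in 4 of 4 conditions. Slc38a5 was not well above background on either tertiary miRNA array. At an unadjusted p under 0.05 there were 26 listed genes (37.7%), against 40.1% of all genes. When any single array of the miR-17, control miRNA or control shRNA cultures was left out, 0 listed genes and 0 of all genes were called. Without either Nr2f1/2 shRNA array 14 listed genes (20.3%) were called, against 17.6% of all genes. With the condition block, leaving out an array takes its whole condition out of the passage estimate.

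Mural cell and fibroblast genes summed to between 30.0 and 60.2 on the P2 arrays and between 8.53 and 22.6 on the P0 arrays. Of the 8 such genes well above background throughout, 5 were higher at P2 in all 4 conditions (Pdgfrb, Cspg4, Col1a1, Col1a2 and Dcn), as were 17.4% of all genes tested. The pluripotency genes summed to between 1.35 and 2.83 at P2 and between 3.12 and 24.0 at P0. Their part in the passage differences was not tested.

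The next comparison set the Nr2f1/2 shRNA against the control shRNA. In tertiary neurospheres 2 of 8 members, Cdh5 by 2.33-fold and Cldn5, were lower at 2-fold, against 9.41% of all genes, and 0 were higher (8.32%). In primary neurospheres Cldn5 was higher (2.95% of all genes) and 0 were lower (0.749%). Cdh5, Emcn and Esm1 were not well above background on either primary shRNA array, so a lower level there could not be seen. Of the 69 listed genes 10 were higher and 10 lower at P2. Among them the ETS factor gene Fli1 was 6.06-fold and the angiopoietin gene Angpt2 4.31-fold higher with the Nr2f1/2 shRNA. Vwf, the clotting factor carrier stored in endothelium, was 5.91-fold, Vcam1 4.70-fold, Plvap, a protein of vessel fenestrae, 4.62-fold and the VEGF receptor gene Flt1 3.90-fold lower. At P0 the 2 genes past 2-fold, Sox18 and Icam2, were at least 1.50-fold and 1.60-fold higher. Over both passages limma called 0 listed genes (1 at an unadjusted p under 0.05, against 1.91% of all genes), and the interaction with passage called 0 (3 unadjusted, against 3.95%).

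The control vectors gave the size of difference present without either manipulation. At P2 Cdh5, Emcn and Cldn5, 3 of 8 members, were lower at 2-fold on the control miRNA array than on the control shRNA array, against 13.1% of all genes, Cldn5 by 8.13-fold, and 0 were higher (9.39%). At P0 Cd34 (4.27-fold), Esm1 (at least 2.41-fold) and Emcn (at least 4.79-fold) were higher on the control miRNA array, against 15.3% of all genes, and 0 were lower (4.50%). Of the 69 listed genes 26 were lower and 5 higher at P2, and 6 lower and 18 higher at P0. At P2 the factor gene Sox17 was at least 5.22-fold and Icam2 at least 9.32-fold lower. At P0 Ptprb, a phosphatase that acts on TIE2, was at least 3.14-fold and Etv2, a master factor of endothelial progenitors, at least 5.65-fold higher. Limma called 0 listed genes for the control difference, with 6 at an unadjusted p under 0.05 and 9.58% of all genes.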

How the data were processed

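Total RNA (50 ng) of 8 cultures was labelled with Cy3 and hybridised to Agilent SurePrint G3 mouse arrays on 1 slide, per the labels' protocols. The authors deposited scanner output of Feature Extraction 10.7.3.1, whose intensity per spot is detrended and background-subtracted on mm9 annotation, per the file headers. A second deposited file of the authors holds signal values, found to be the same intensities each divided by an array constant (481 to 949), and served as an alternative.

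Control spots and 1104 spots marked as outliers were left out, which removed 28 of 55681 probes. The log2 of each intensity was averaged over the spots of a probe, less the log2 75th percentile of its array. A gene was represented by its probe with the highest mean signal and tested where at least 2 of 8 arrays had it well above background. Condition and passage were the factors of a limma fit (limma 3.58.1, R 4.3.3) over 27120 genes, two-sided, with a Benjamini-Hochberg adjusted p under 0.05 called. The fit was also run on simulated data with independent noise, a known passage change and no differences between conditions. That setting differs from these arrays, so the run is no check of the results here. Single arrays were compared at 2-fold with no test.

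The members, the other endothelial genes and the marker lists were chosen with earlier results of these data known, so no count over them is independent support. Named beside the members were the called genes of the list or, up to 6 per comparison, those with the largest differences, and the 8 genes most correlated with the members' mean; not all of these are printed, and genes named from counts of 5 or fewer were chosen after their values were seen. Promoter and microRNA sequences are from RefSeq (GRCm38.p6). Alternatives were normexp (offset 50), quantile normalization, other filters, the authors' table, the mean over probes of a gene, no block, each vector system alone and each array left out.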

Additional observations from a re-analysis of the deposited data

Results flagged for a closer look

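Emcn had passage differences of opposite sign in the shRNA and miRNA cultures. The mean difference between P2 and P0 was 5.84 log2 units higher in the shRNA than in the miRNA cultures by measured signal, and at least 3.90 higher with the 3 dim arrays set at their bound. The control miRNA array also lay below the control shRNA array at P2 and above it at P0. The P2 difference minus the P0 difference was -4.63 by measured signal, a size of at least 3.36 with the dim primary control shRNA array set at its bound. Cldn5 was lower with the Nr2f1/2 shRNA than with its control at P2 and higher at P0, the P2 difference minus the P0 difference being -3.23. These differences come from single arrays and were not tested.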

How the results depend on the processing

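The count of other endothelial genes called for passage in limma depended on the processing. It was 5 here (4.97% of all genes called), 21 after normexp background correction (25.9%), 14 with a filter on all 8 arrays (17.7%), 11 without the condition block (14.4%), 0 in the 4 shRNA arrays alone (0 of all genes) and 48 in the 4 miRNA arrays alone (50.7%). With each array left out in turn it ran from 0 to 14, while the share of all genes ran from 0 to 17.6%. Leaving out either array of a condition gave the same passage calls, because the condition block takes up the array that remains. Each of these fits thus lacks a whole condition. Of all passage calls 52.6% were higher at P2, against 66.2% after quantile normalization, 30.7% after normexp and 42.3% with the filter on all 8 arrays. Counts for knockdown, miR-17 and the control vectors were 0 under every alternative run. The interactions were fitted under the main setting alone. The primary miR-17 array was the highest for 7 of the 10 members in each of 5 settings, and for 24 to 31 of the 69 listed genes, where the share of all genes was 16.7% to 25.0%. For the members' passage means 107 of 120 alternative values kept their sign. The others were of Cdh5, Emcn, Pecam1 and Tie1, among them 0.26, 0.16 and 0.19 for Cdh5, Emcn and Pecam1 after quantile normalization. Though 119 of 120 moved by less than 1 SD, that SD, taken between conditions, exceeded the size of the mean for every member but Egfl7. That count is therefore no check of stability, and the mean of Esm1 went from 2.21 to 0.53 after normexp. Some of the 120 values are copies, since leaving out either array of a condition drops the same pair. The means of Cdh5, Emcn and Tie1 hold dim arrays. For miR-17 at P0 40 of 42 kept their sign, and Kdr turned to 0.12 on its second probe. The cause of these shifts was not tested. The main passage fit pairs the P2 and P0 arrays of a condition through the condition block. Dim signals limit what can be seen of Tek, Tie1, Cdh5, Emcn and Esm1, and single arrays limit every comparison.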
